A study of Homo sapiens with 2 samples.

Results

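Integrins are cell surface receptors made of an alpha and a beta chain, and laminins are trimers of an alpha, a beta and a gamma chain that build the basement membrane. A set of 39 genes, comprising 25 integrin chains, 12 laminin chains and the secreted matrix proteins NPNT and RELN, was described here out of 18930 genes in the deposited RNA-seq table. The genes were chosen by symbol, with the CPM values of these 2 libraries already known, and ITGB7 was left out of the set by the same rule. The expression differences given here are therefore descriptions of the chosen genes. All 39 genes had a count, and 35 had at least 10 reads over both libraries.

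The study compared A375, a human melanoma cell line carried as DTIC-resistant cells (DR), with its wild-type control (WT), to learn what distinguishes resistant cells. DTIC (dacarbazine) is a drug that alkylates DNA, and the DR cells were raised by exposure to increasing amounts of it. There was 1 library per group, with 54878310 reads in the library labelled DR against 35294629 in that labelled WT. The sample labels gave both libraries the same cell line, the same tissue (skin), the same DMEM medium and the same 105 days with the drug, which they spelled DITC, so the group, title and description alone separate them. No genotype other than the name wild type was given, and whether the resistant line was a clone was not stated. The count columns were matched to the samples through sample descriptions that differ by 1 punctuation mark and do not contain the word wild type, and every direction here rests on that match.

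The markers of the labelled cell type went against the label. All 12 plasma cell markers had reads, with a summed level of 5190 CPM (read counts scaled by library size) in the library labelled DR and 6260 in that labelled WT. JCHAIN, which joins secreted immunoglobulins, alone had 2010 and 2920 CPM. The 6 of 8 melanocytic markers with counts summed to 41.6 and 40.4 CPM, most of it from MITF at 34.6 and 34.7. SOX10, a defining melanocytic factor, had 3 reads and 0 reads, and TYRP1 had 0 and 17. The libraries are therefore named only by their labels. Because each group had 1 library, no difference below could be set against a spread between replicates and no p-value is given. Fold changes are on the log2(CPM + 0.5) scale, the library labelled DR minus the library labelled WT, with 95% Clopper-Pearson intervals that cover read counting error only. Where a gene is given 2 values with no library named, that of the library labelled DR comes first. The log2 scale with 0.5 CPM added understates the difference of low genes. In bulk RNA, fewer cells of a type and less RNA per cell cannot be told apart.

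Integrins hold cells to the matrix or to other cells, and the choice of alpha chain largely sets the ligand. Laminin-binding, collagen-binding, RGD-binding (for the tripeptide motif in fibronectin and related proteins) and leukocyte integrins form the classical groups. Plasma cells and their malignant counterparts are known to use integrin α4 with β1 or β7 for holding to marrow stroma, while melanoma cells are known for αv and β1 integrins. NPNT (nephronectin) is a ligand of integrin α8β1, best known from kidney development. RELN (reelin) is a large secreted glycoprotein that signals through the lipoprotein receptors VLDLR and LRP8 and can also bind integrin α3β1.

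Of the 35 genes with at least 10 reads, 6 were 2-fold or more higher in the library labelled DR (17.1%), beside 7.48% of the 16210 genes compared. These were NPNT, ITGA8, ITGB4, LAMA3, ITGA6 and ITGA3. A further 5 were 2-fold or more lower (14.3%), beside 4.16% of all genes compared, and these were RELN, ITGA2, LAMB1, ITGB8 and ITGA4. The other 24 lay within 2-fold. Nothing is read from these shares, because the genes were chosen with these values known. The median log2 fold change was 0.25 over the 35 genes and 0.01 over all genes compared. Their median level was 5.49 CPM in the library labelled DR and 3.61 in that labelled WT, against 20.0 and 19.6 CPM over all genes compared.

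The 4 genes furthest from equal levels were NPNT and ITGA8 on the higher side and RELN and ITGA2 on the lower side. The 250 bases before the start of transcription of these genes are printed because they let the start regions of genes on both sides be compared. They were taken from RefSeq on GRCh38.p14, whereas the submitters' processing notes name hg19. NPNT lies at chr4:105895221-105895470 on the plus strand, ITGA8 at chr10:15719923-15720172 on the minus strand, ITGA2 at chr5:52989102-52989351 on the plus strand and RELN at chr7:103989659-103989908 on the minus strand. Each reads from 5′ to 3′ towards its gene, and capitals mark the GC box GGGCGG on either strand and the E-box CACGTG, with overlapping GC boxes shown as a continuous run.
NPNT: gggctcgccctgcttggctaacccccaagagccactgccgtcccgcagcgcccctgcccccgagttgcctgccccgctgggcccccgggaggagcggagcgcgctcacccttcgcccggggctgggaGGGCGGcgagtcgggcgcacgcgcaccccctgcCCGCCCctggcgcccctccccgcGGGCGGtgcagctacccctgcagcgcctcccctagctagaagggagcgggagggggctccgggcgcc
ITGA8: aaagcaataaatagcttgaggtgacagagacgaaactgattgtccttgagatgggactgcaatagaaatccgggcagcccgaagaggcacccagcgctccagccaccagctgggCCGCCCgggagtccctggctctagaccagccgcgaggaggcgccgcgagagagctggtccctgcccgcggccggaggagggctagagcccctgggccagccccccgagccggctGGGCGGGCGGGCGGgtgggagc
ITGA2: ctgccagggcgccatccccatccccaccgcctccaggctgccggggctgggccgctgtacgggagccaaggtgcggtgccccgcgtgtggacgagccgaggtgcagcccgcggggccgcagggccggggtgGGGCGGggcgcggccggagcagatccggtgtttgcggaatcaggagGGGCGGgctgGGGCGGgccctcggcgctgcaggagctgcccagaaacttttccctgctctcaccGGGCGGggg
RELN: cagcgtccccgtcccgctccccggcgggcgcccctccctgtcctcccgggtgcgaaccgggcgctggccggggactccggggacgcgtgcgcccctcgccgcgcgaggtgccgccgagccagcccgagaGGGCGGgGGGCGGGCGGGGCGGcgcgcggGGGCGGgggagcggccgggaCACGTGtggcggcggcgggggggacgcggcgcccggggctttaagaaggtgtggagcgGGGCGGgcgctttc
The stretches of NPNT, ITGA8, ITGA2 and RELN held 3, 4, 4 and 6 GC boxes. RELN alone of these 4 held the E-box, with 1 match. None of the 4 held TATAAA or the AP-1 motif TGACTCA. RELN had 43 CG dinucleotides and a GC content of 83.2%, and its CG number lay at percentile 99.1 of 35116 start sites. NPNT had 27 (percentile 83.2), ITGA2 had 26 (81.4) and ITGA8 had 19 (66.5), while the median was 11 over all start sites and 12 over those of the genes described here. In all, 27 of the 39 genes matched the promoter sequences used, with 34 start sites. GGGCGG on either strand occurred at 19 of these (55.9%) and at 42.6% of all start sites. The TATA box TATAAA, the E-box and the AP-1 motif, on either strand, each occurred at 5.88% of the 34 sites, beside 10.7%, 6.34% and 4.2% of all sites. GC-rich starts were thus found in genes on both sides of the comparison, and the matches are letters in a window, with no binding measured.

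NPNT (Gene ID 255743) had 2951 reads in the library labelled DR against 13 in that labelled WT, or 53.1 and 0.373 CPM. Its level was moderate in the library labelled DR, and it had few reads in the library labelled WT. The ratio of CPM was 142, with a counting interval of 83.2 to 268, and the log2 fold change was 5.94 (5.56 to 6.26). Per kilobase of gene length, NPNT stood at 11.6 CPM in the library labelled DR, at percentile 62.6 of all genes compared, and at 0.0817 CPM, percentile 6.8, in the library labelled WT.

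ITGA8 (Gene ID 8516), the alpha chain of the NPNT receptor, had 2630 and 59 reads, or 47.3 and 1.69 CPM. Its ratio was 28.0 (21.6 to 36.8) and its log2 fold change 4.45 (4.15 to 4.75). Ligand and receptor chain were thus both higher in the library labelled DR, as values of 1 pair of libraries. ITGB1, the only known beta partner of ITGA8, was present in both at 109 and 162 CPM. Per kilobase, the α8 chain was the lesser partner in both libraries, at 7.48 against 28.2 CPM for ITGB1 in the library labelled DR and at 0.267 against 42.0 in the library labelled WT. Neither NPNT nor ITGA8 overlapped another annotated RefSeq gene. The counts of ITGA8 were fractional before rounding (2629.55 and 59.36), while those of NPNT were whole.

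RELN (Gene ID 5649) went the other way, with 305 reads in the library labelled DR against 16839 in that labelled WT, or 5.49 and 483 CPM. Its CPM was 88.0 times as high in the library labelled WT (counting interval 78.6 to 98.9), a log2 fold change of -6.34 (-6.49 to -6.18). Per kilobase it stood at percentile 87.6 in the library labelled WT, at 41.8 CPM, and at percentile 18.7 in the library labelled DR, at 0.475 CPM. The counts of RELN were whole numbers. RELN overlaps the RefSeq genes SLC26A5-AS1 and LOC105375435, neither of which had counts, and whether counting used strand was not stated. None of its 2 lipoprotein receptors and their adaptor was 2-fold or more lower. LRP8 had 121 and 145 CPM (log2 fold change -0.27), and VLDLR had 3.62 and 1.43 CPM (1.09). DAB1, the adaptor inside the cell, had 11 reads and 0 reads. Against a floor of 3 reads in the library labelled WT it was 2.3-fold higher, while its counting interval began at 1.57-fold. On the log2(CPM + 0.5) scale VLDLR alone of the 3 was past 2-fold (33.3%, beside 7.48% of all genes compared), and the median was 0.48. With DAB1 set against that floor 2 were past 2-fold and the median was 1.09. The same rule gave 1287 higher genes of the 16210 compared.

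**Figure D1:**
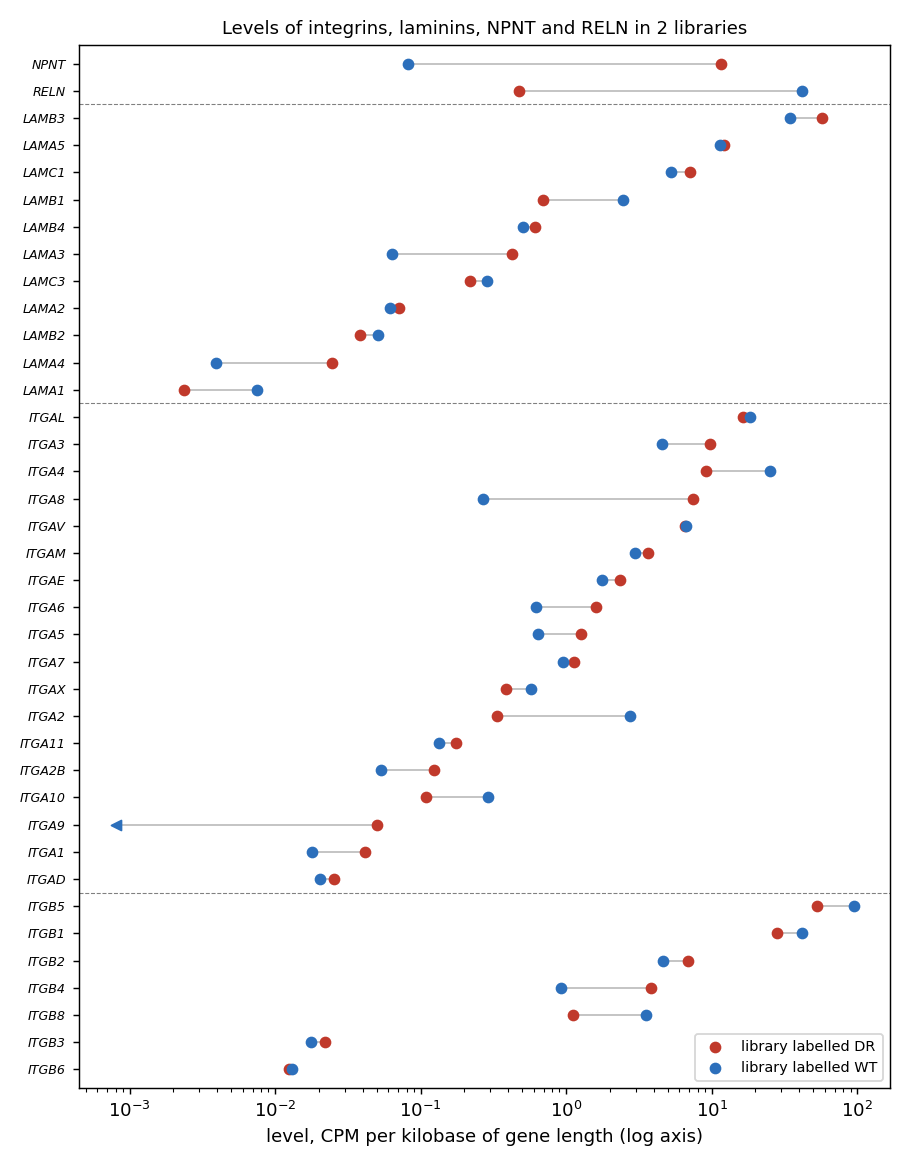
Level of each of 38 genes in CPM per kilobase of gene length on a log axis, with the library labelled DR in red and the library labelled WT in blue, grouped as NPNT and RELN, laminins, integrin alpha chains and integrin beta chains. Among genes with reads in both libraries, the widest gaps are those of NPNT (11.6 and 0.0817), RELN (0.475 and 41.8) and ITGA8 (7.48 and 0.267), and the arrowhead marks ITGA9 at 0 reads in the library labelled WT.

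Among the laminins, the levels were held by 1 chain of each kind in both libraries. LAMA5, the alpha chain of the main laminins of adult basement membranes, had 7676 and 4546 reads, or 138 and 130 CPM, and a log2 fold change of 0.08 (0.03 to 0.14). It made 95.9% of the summed laminin alpha level per kilobase in the library labelled DR and 98.8% in that labelled WT. LAMC1, the gamma chain shared by most laminins, had 3095 and 1447 reads, or 55.7 and 41.5 CPM, and made 94.2% and 92.3% of the gamma level. LAMB3, a beta chain of epithelial laminin, had 13227 and 4971 reads, or 238 and 143 CPM, and made 97.7% and 91.9% of the beta level. LAMC1 and LAMB3 had log2 fold changes of 0.42 and 0.74 and so stayed within 2-fold.

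LAMA3, the alpha chain that joins LAMB3 in epithelial laminin, was far below it. LAMA3 had 128 reads in the library labelled DR against 12 in that labelled WT, or 2.3 and 0.344 CPM. With 0.5 CPM added LAMA3 was the only laminin chain 2-fold or more higher, with a log2 fold change of 1.73 (1.29 to 2.09), and per kilobase it was at 0.422 and 0.0631 CPM, against 57.2 and 34.3 CPM for LAMB3. The epithelial markers had reads in both libraries, 5 of 5, with a summed level of 241 and 166 CPM. None was past 2-fold with 0.5 CPM added, beside 7.48% higher and 4.16% lower of all genes compared. KRT5 had a log2 fold change of -1.0, and its plain CPM was 2.14 times as high in the library labelled WT (1.77 to 2.59). The part of epithelial cells in the LAMB3 and LAMA3 values was not tested.

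LAMB1, a beta chain shared by several basement membrane laminins, was the only laminin chain 2-fold or more lower. It had 207 and 455 reads, or 3.73 and 13.1 CPM, and a log2 fold change of -1.68 (-1.90 to -1.46). Of 11 known laminin trimers, the one made of LAMA5, LAMB1 and LAMC1 had every chain at 1 CPM per kilobase or more in the library labelled WT, and its least chain was LAMB1 at 2.44. In the library labelled DR, LAMB1 was at 0.698 CPM per kilobase, and none of the 11 trimers reached that level with every chain. LAMB2, the alternative beta chain, had 12 and 10 reads. Over the 11 laminins with at least 10 reads the median log2 fold change was 0.20, with 1 higher and 1 lower. Each is 9.09% of the 11, beside 7.48% higher and 4.16% lower of all genes compared. LAMA1 had 1 and 2 reads and was not compared. LAMA2, LAMA4, LAMB2, LAMB4 and LAMC3 had at most 92 reads in either library and lay within 2-fold on this scale. For LAMA4 that rests on the 0.5 CPM added. It had 10 reads and 1 read, a CPM ratio of 6.27 with a counting interval of 0.893 to 272, and with 0.1 CPM added its log2 fold change was 1.12, past 2-fold.

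**Figure D2:**
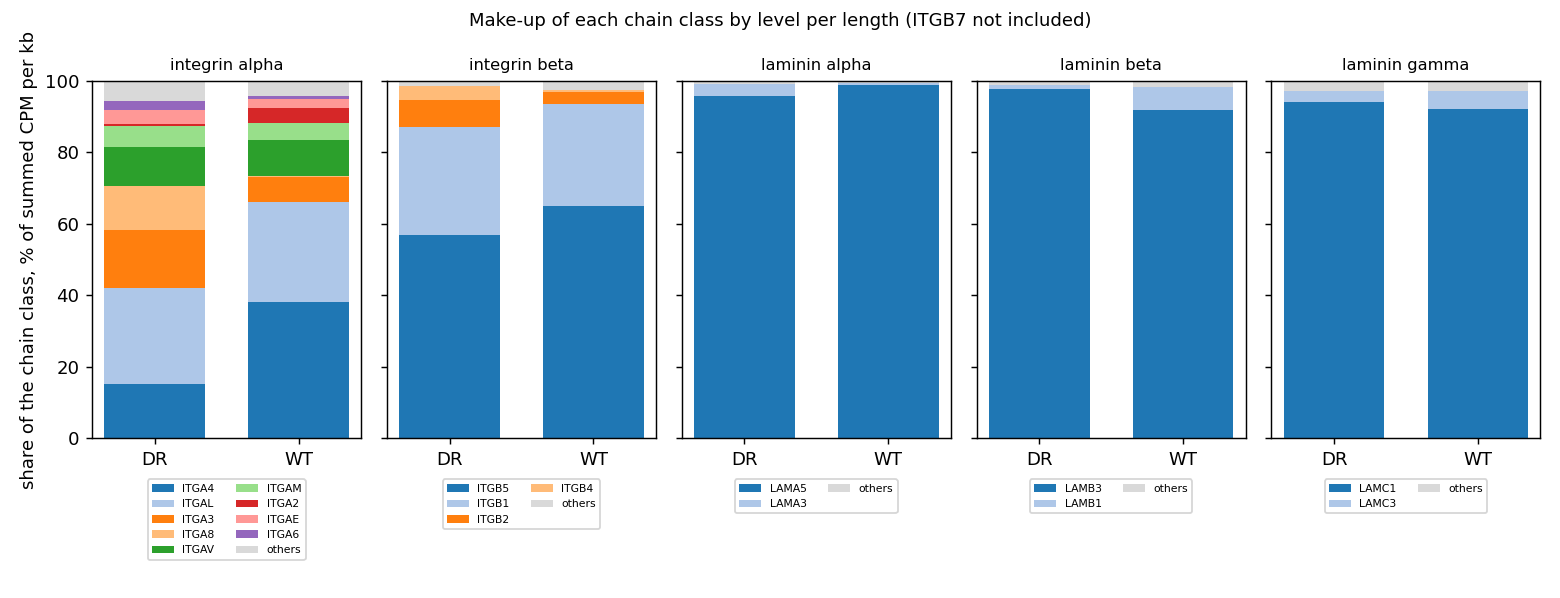
Share of each chain in the summed CPM per kilobase of its class, in percent, as stacked bars for the libraries labelled DR and WT, for integrin alpha and beta chains (ITGB7 not included) and laminin alpha, beta and gamma chains. LAMA5, LAMB3 and LAMC1 fill over 90% of each laminin class in both libraries, while ITGA4 takes 15.1% and 38.1% and ITGA8 takes 12.3% and 0.407% of the integrin alpha class.

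The integrin receptors for laminin come next. ITGA3, ITGA6, ITGA7 and ITGB4 are the chains given to this group, and 3 of these 4 were 2-fold or more higher in the library labelled DR, with a median log2 fold change of 1.18 over the 4. Over all genes compared 7.48% were higher and the median was 0.01. ITGB4, the beta chain that pairs with α6 in the hemidesmosome of epithelia, had 967 and 145 reads, or 17.4 and 4.16 CPM, and a log2 fold change of 1.94 (1.71 to 2.18). ITGA6, its partner, had 483 and 116 reads, or 8.69 and 3.33 CPM, and a log2 fold change of 1.26 (1.0 to 1.53). ITGA3, which pairs with β1 as a receptor for epithelial laminins, had 2672 and 777 reads, or 48.1 and 22.3 CPM, and a log2 fold change of 1.09 (0.98 to 1.21). The intervals of ITGA3 and ITGA6 reached down to the 2-fold line, whereas that of ITGB4 stayed above it. ITGA7, the muscle laminin receptor chain, had 4.32 and 3.61 CPM and a log2 fold change of 0.23.

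Per kilobase, ITGA3 took 16.2% of the integrin alpha level in the library labelled DR against 6.91% in that labelled WT. Both chains of α6β4 lay at 1 CPM per kilobase or more only in the library labelled DR, where ITGA6 was at 1.61 and ITGB4 at 3.83 CPM. In the library labelled WT they were at 0.618 and 0.916 CPM per kilobase. ITGB4 overlaps GALK1, a galactose kinase gene with 1743 and 881 reads and a log2 fold change of 0.31, and whether counting used strand was not stated. Of the 5 epithelial markers, KRT18, EPCAM and KRT8 had higher values in the library labelled DR, at 164 and 114, 65.8 and 38.0, and 7.61 and 5.65 CPM. The basal keratins KRT5 and KRT14 had lower values there, at 3.47 and 7.43 and at 0.324 and 0.459 CPM. The part of these cells in the values of ITGB4 and ITGA6 was not tested.

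Laminin receptors that are not integrins were also listed. Of 7 such genes, 1 was 2-fold or more higher and 2 were lower (14.3% and 28.6%, beside 7.48% and 4.16% of all genes compared), with a median log2 fold change of -0.02. SDC2, a heparan sulfate syndecan, had 5.65 and 36.5 CPM and a log2 fold change of -2.59 (-2.76 to -2.42). SDC3, another syndecan, had 7.0 and 16.6 CPM and a log2 fold change of -1.18. The dystroglycan gene DAG1 had 53.5 and 54.2 CPM, and RPSA, a ribosomal protein also known as a laminin receptor, had 1440 and 1390 CPM.

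The collagen-binding alpha chains were low in both libraries, apart from ITGA2 in the library labelled WT, the only value of the group above 10 CPM. ITGA2, the alpha chain of α2β1 on platelets and epithelia, had 146 reads in the library labelled DR against 751 in that labelled WT, or 2.63 and 21.5 CPM. Its level was 8.2 times as high in the library labelled WT (6.86 to 9.86), a log2 fold change of -2.82 (-3.04 to -2.59). ITGA1, ITGA10 and ITGA11, the other collagen-binding alpha chains, had between 3 and 86 reads in a library and lay within 2-fold with 0.5 CPM added. For ITGA10 and ITGA1 that rests on the 0.5 CPM. By plain CPM, ITGA10 (28 and 47 reads) was 2.68 times as high in the library labelled WT (1.64 to 4.44). ITGA1 (11 and 3 reads) was 2.3 times as high in the library labelled DR (0.608 to 12.8). The median of the 4 was -0.31, and the counts of ITGA2 were fractional before rounding. ITGA2 overlaps the RefSeq genes ITGA2-AS1 and LOC124900974, neither of which had counts. Per kilobase, ITGA2 was below 1 CPM in the library labelled DR, at 0.334, and was at 2.73 in the library labelled WT. The platelet markers with counts, 3 of 4, summed to 2.5 and 2.24 CPM, with GP9 at 0 reads in the library labelled DR. ITGA2B, the platelet integrin chain, had 22 and 6 reads.

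**Figure D3:**
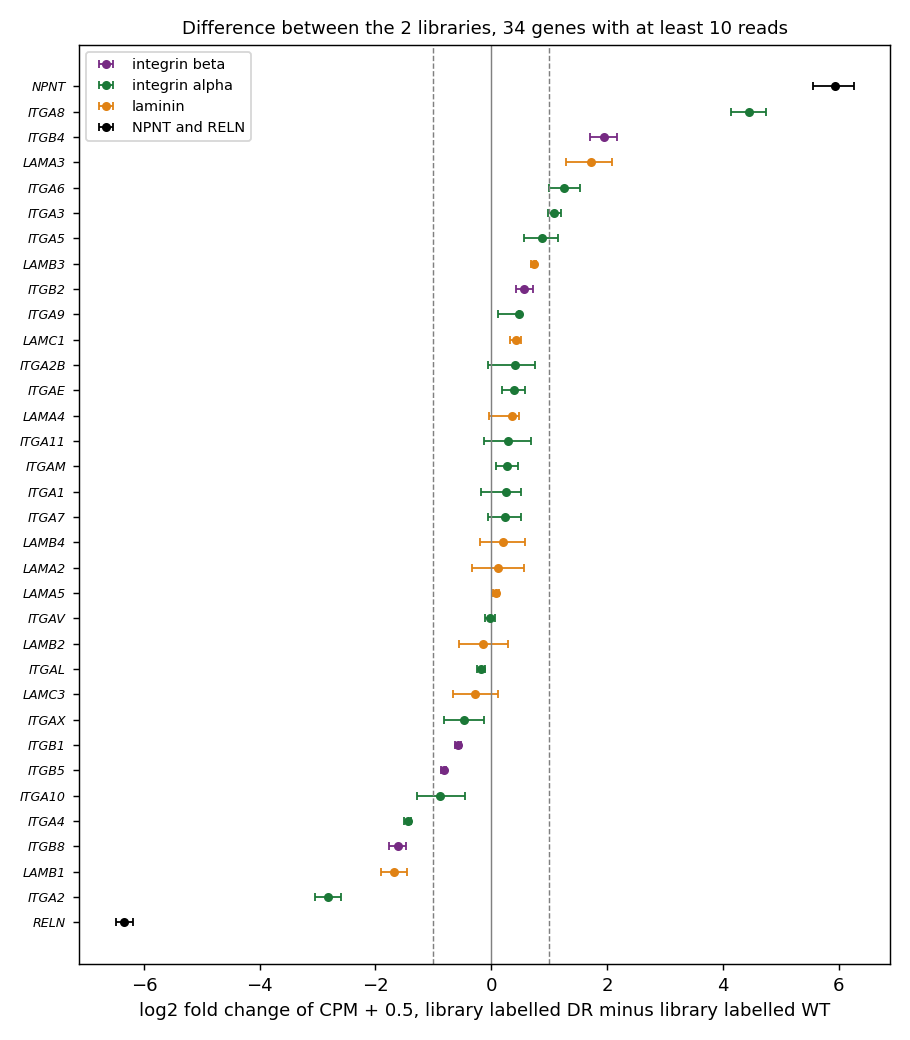
Log2 fold change of CPM + 0.5, library labelled DR minus library labelled WT, for 34 genes with at least 10 reads, ordered by value and coloured by class, with bars for 95% counting intervals and dashed lines at 2-fold. NPNT (5.94) and ITGA8 (4.45) lie furthest to the right and RELN (-6.34) and ITGA2 (-2.82) furthest to the left, and 23 of these genes lie between the dashed lines. The point of ITGA9, with 0 reads in the library labelled WT, depends on the 0.5 CPM that was added.

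The RGD-binding group held chains on both sides. Of its 8 chains, 6 had at least 10 reads, and 1 of these, ITGA8, was higher and 1, ITGB8, was lower. Each is 16.7% of the 6, beside 7.48% higher and 4.16% lower of all genes compared. ITGB8, which pairs with αv to release TGF-beta, had 551 and 1092 reads, or 9.92 and 31.3 CPM, and a log2 fold change of -1.61 (-1.76 to -1.47), from counts that were fractional before rounding. ITGAV, the alpha chain shared by the αv integrins, had 2583 and 1640 reads, or 46.5 and 47.0 CPM, and its log2 fold change of -0.02 (-0.11 to 0.07) turned to 0.02 with library totals in place of TMM scaling. ITGB5, which pairs with αv as a vitronectin receptor, had 9545 and 10616 reads, or 172 and 305 CPM, and a log2 fold change of -0.82 (-0.86 to -0.78).

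The αv chain was thus at nearly equal levels while its partners ITGB1, ITGB5 and ITGB8 had lower values in the library labelled DR. Per kilobase, ITGB5 was the highest beta chain of the set in both libraries, at 53.3 and 94.5 CPM, followed by ITGB1 at 28.2 and 42.0 CPM. ITGB3 and ITGB6, the other partners of αv, had at most 6 reads in either library. ITGA5, the fibronectin receptor chain, had 302 and 96 reads, 5.44 and 2.75 CPM and a log2 fold change of 0.87 (0.57 to 1.16). FN1 (fibronectin) itself was the matrix ligand with the most reads, at 4880 and 6410 CPM and a log2 fold change of -0.39.

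The beta chain ITGB1 pairs with 12 of the alpha chains described here. It had 6052 and 5643 reads, or 109 and 162 CPM, and a log2 fold change of -0.57 (-0.62 to -0.52). Per kilobase it exceeded each of its alpha partners in both libraries. Of 22 known integrin pairs, leaving out those of ITGB7, 12 had both chains at 1 CPM per kilobase or more in the library labelled DR and 8 in that labelled WT. The pairs of ITGB1 with ITGA5, ITGA6, ITGA7 and ITGA8 and the pair α6β4 passed this level in the library labelled DR and not in the library labelled WT, and α2β1 the reverse. For ITGA7 the values lay close together on both sides of that level, at 1.13 and 0.944 CPM per kilobase. The log2 fold changes of ITGA5 (0.87) and ITGA7 (0.23) were within 2-fold, and ITGA6 counts in its pairs with both ITGB1 and ITGB4. Of single genes, 12336 of the 18267 with counts reached that level in either library, beside 22 of the 39 described here. Nothing is read from the numbers of pairs.

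ITGA4, which with β1 binds VCAM1 and a fibronectin segment, was lower in the library labelled DR and was still among its abundant alpha chains. It had 3630 and 6222 reads, or 65.3 and 178 CPM, and a log2 fold change of -1.44 (-1.5 to -1.38). Per kilobase it was the highest of the 18 alpha chains in the library labelled WT, at 25.0 CPM, and the third highest in the library labelled DR, at 9.16 CPM. Its counts were fractional before rounding, and it overlaps CERKL, which had 19 and 2 reads. ITGA9, the related alpha chain, had 11 reads and 0 reads. Against a floor of 3 reads in the library labelled WT it was 2.3-fold higher, while its counting interval began at 1.57-fold. It is not counted among the 6 higher genes. With each gene at 0 reads set to that floor, 7 of the 35 were higher and 5 lower. Over the 16210 genes compared, the same rule gave 1287 higher and 683 lower. The median of the 35 stayed at 0.25.

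ITGB7, left out of the set, is the other beta partner of α4. It was among the most abundant genes of both libraries, the third and the fourth by CPM, with 351112 and 137019 reads, or 6320 and 3930 CPM. Its log2 fold change was 0.69 (0.68 to 0.69), on the opposite side of 0 to that of ITGA4. Per kilobase ITGB7 stood at 2200 and 1370 CPM, far above ITGA4 and above ITGAE, its other alpha partner, at 2.34 and 1.75 CPM.

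Of the leukocyte integrins, none of the 5 chains with at least 10 reads was past 2-fold. Of all genes compared only 7.48% were higher and 4.16% lower, so nothing particular to these chains is read from this. ITGAL, the alpha chain of LFA-1, had 4598 and 3265 reads, or 82.8 and 93.7 CPM, and a log2 fold change of -0.18 (-0.24 to -0.11). ITGB2, its beta chain, had 1128 and 470 reads, or 20.3 and 13.5 CPM, and a log2 fold change of 0.57 (0.42 to 0.73). Per kilobase ITGAL, at 16.3 and 18.4 CPM, was above ITGB2, at 6.93 and 4.6 CPM, in both libraries.

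ITGAM, the alpha chain of the complement receptor Mac-1, had 598 and 306 reads, or 10.8 and 8.78 CPM, and a log2 fold change of 0.28. ITGAE, the chain of αEβ7 that binds E-cadherin, had 580 and 273 reads, or 10.4 and 7.83 CPM, and a log2 fold change of 0.39. ITGAE overlaps P2RX5, which had 75.9 and 23.7 CPM, and GSG2. ITGAX had 98 and 92 reads, and ITGAD, next to it on chromosome 16, had 4 and 2. The myeloid markers, 3 of 3 with reads, summed to 10.7 and 8.89 CPM, and the T cell markers, 4 of 4, to 4.36 and 4.13 CPM. None of these markers was past 2-fold, beside 7.48% higher and 4.16% lower of all genes compared.

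The proteins that link integrin tails to actin and to signalling were then examined as a list of 41 genes, all with at least 10 reads. Of these, 4 (9.76%) were 2-fold or more higher and 5 (12.2%) were lower, beside 7.48% and 4.16% of all genes compared, with a median log2 fold change of 0.18. SRC, a kinase activated at integrin contacts, had 12.4 and 3.61 CPM and a log2 fold change of 1.64 (1.40 to 1.90). FERMT3, the kindlin of blood cells that activates integrins, had 18.5 and 57.1 CPM and a log2 fold change of -1.60 (-1.71 to -1.49). ACTN1, an alpha-actinin that crosslinks actin at adhesions, had 8.68 and 25.5 CPM (-1.5). APBB1IP, which brings talin to the membrane with the GTPase RAP1, had 35.9 and 80.8 CPM (-1.16), and LYN, a SRC family kinase of blood cells, had 15.6 and 34.5 CPM (-1.12). Talin itself, encoded by TLN1, stayed close to equal, at 401 and 426 CPM.

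The matrix ligands other than laminins were examined as a list of their own. Of 36 listed, 34 had a count and 26 at least 10 reads, of which 12 (46.2%) were 2-fold or more higher and 2 (7.69%) were lower, with a median log2 fold change of 0.84. Over all genes compared the shares were 7.48% and 4.16%, so that higher genes outnumbered lower ones there too. The list was mostly low, with a median of 3.52 and 0.803 CPM over the 26. Of the higher genes, COL5A1 and COL1A1 alone reached 10 CPM. The summed level of the list was lower in the library labelled DR, at 5280 and 6660 CPM, most of it from FN1 at 4880 and 6410. COL5A1, a fibrillar collagen chain, had 14.7 and 5.71 CPM and a log2 fold change of 1.29 (1.08 to 1.5), and COL1A1, the main collagen of skin and bone, had 10.3 and 3.13 CPM (1.57, 1.31 to 1.84). Several others, chosen after their values were seen, had few or no reads in the library labelled WT. TGFBI, a matrix protein bound by integrins, had 522 and 21 reads (log2 fold change 3.17), and FREM2, a basement membrane protein of the Fraser complex, had 428 and 19 reads (2.97). COL4A5, a basement membrane collagen chain, had 123 reads and 0 reads. Against a floor of 3 reads in the library labelled WT it was 25.7-fold higher, while its counting interval began at 20.6-fold. The 2 lower genes of the list, also named after their values were seen, were TNC (tenascin C), with 24 and 109 reads and a log2 fold change of -1.96, and SVEP1, a ligand of α9β1, with 13 and 47 reads (-1.33).

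Few markers of matrix-producing and vessel cells had at least 10 reads. These were 2 fibroblast markers, COL1A1 and PDGFRB, and 2 endothelial markers. Each was 2-fold or more higher in the library labelled DR, as were 7.48% of all genes compared. The fibroblast markers with counts, 4 of 6, summed to 14.1 and 3.18 CPM, and PDGFRB had 209 reads and 1 read. COL1A1, COL1A2 and COL3A1 stand in both lists, and the last 2 of these had 1 read and 0 reads and 0 reads and 1 read. The endothelial markers with counts, 2 of 3, summed to 17.8 and 8.26 CPM, with log2 fold changes of 1.02 for PECAM1 and 1.04 for VWF. Their part in the values of the matrix ligands was not tested.

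The ligands on cell surfaces and the membrane partners of integrins had a few genes past 2-fold. Of 11 surface ligands, 10 had at least 10 reads, and 2 were higher and 1 was lower (20.0% and 10.0%, beside 7.48% and 4.16% of all genes compared), with a median of 0.46. CDH1 (E-cadherin), the ligand of αEβ7, had 26.6 and 8.35 CPM and a log2 fold change of 1.61 (1.44 to 1.79). F11R, a junctional protein bound by LFA-1, had 175 and 68.3 CPM (1.35, 1.28 to 1.41), and ICAM1, the best known ligand of LFA-1, had 244 and 190 CPM (0.36). VCAM1, the ligand of α4β1, had 3 reads and 1 read. Of the 6 membrane partners, 2 (33.3%) were higher and 0 lower, and these were the tetraspanins CD82 and CD9, with 71.1 and 27.4 CPM (1.36) and 314 and 131 CPM (1.25), and the median of the 6 was 0.06.

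**Figure D4:**
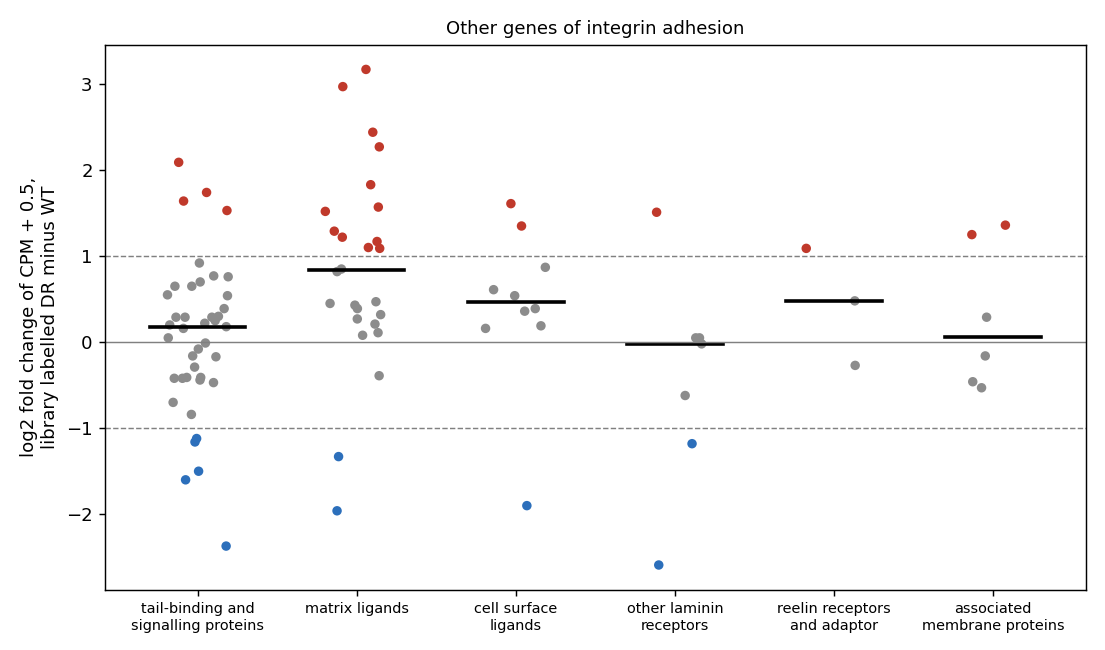
Log2 fold change of CPM + 0.5, library labelled DR minus library labelled WT, for the genes with at least 10 reads in 6 lists of other adhesion genes, 1 point a gene, with red and blue for genes 2-fold or more higher and lower, grey for the others, black bars at the list medians and dashed lines at 2-fold. The matrix ligands have a median of 0.84, with 12 of 26 genes above the upper line, and genes with 0 reads in the library labelled WT, such as COL4A5, are placed by the 0.5 CPM that was added.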

How the data were processed

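The study deposited 1 table for 1 DR and 1 WT library. The authors deposited estimated counts per gene with gene lengths, and the submitters' processing notes name Bowtie 0.12.2 and hg19. The counting tool and the use of strand are not given in the sources used here. The table's log2 ratio, p-value and q-value columns hold the authors' own comparison and were not used. Counts were absent for 663 genes and fractional for 9108 of 18267, and were rounded to whole numbers.

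With 1 library per group, the quasi-likelihood test of edgeR had no replicates and could not be fitted, and no other test was made. Library sizes were scaled by TMM (edgeR 4.0.16 in R 4.3.3), CPM values were computed, and 0.5 CPM was added before log2 fold changes. Genes under 10 reads over both libraries (2057) were left out, leaving 16210. Counting intervals (95%, Clopper-Pearson) used SciPy 1.17.1 in Python 3.11.15, with NumPy 2.4.6, pandas 2.3.3 and matplotlib 3.10.9. Their coverage was checked only on simulated counts with counting error alone, without the 0.5 CPM and for genes with many reads. That check does not cover genes with few reads or the spread between cultures. Reads carry no molecular identifiers, so intervals and floors cover counting error only. At these depths 3 reads are worth 0.054 CPM in the library labelled DR and 0.0861 in that labelled WT. Levels of chains were compared with each other per kilobase of deposited gene length. Median levels, marker sums and the ranks of ITGB7 and FN1 were in reads or CPM and were not scaled by length.

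The members and gene lists were chosen with earlier results of these data known. Members were named with values where they reached 10 CPM in either library or 2-fold, and list genes where they did both. Any other gene was picked once its values had been seen. Gene IDs matched RefSeq GRCh38.p14 for 18583 genes and all 39 members, and RefSeq served for names, neighbours, overlaps and promoter sequence. Alternatives were library totals, DESeq2 1.42.0 size factors, a minimum of 50 reads, no minimum, pseudocounts of 0.1 and 5 CPM, a log2 threshold of 2, and leaving out genes with fractional counts. The values of 1 gene of the set are not reported here.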

Additional observations from a re-analysis of the deposited data

How the results depend on the processing

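The difference between the libraries cannot be told apart from differences between any pair of cultures, since each group had 1 library. No paired analysis was possible because each group holds 1 sample. With a pseudocount of 5 CPM the higher members numbered 3 in place of 6 (ITGA3, ITGA6 and LAMA3 came under 2-fold), and all genes compared gave 423 higher and 333 lower in place of 1212 and 674. At a log2 threshold of 2, 2 members were higher and 2 were lower, and 339 and 189 of all genes. Without genes with fractional counts, 22 members and 7508 genes were left. Then 2 members (RELN and LAMB1) were lower in place of 5, since ITGA2, ITGA4 and ITGB8 had fractional counts. The higher members numbered 5 in place of 6, since ITGA8 had fractional counts. All genes gave 709 higher and 358 lower. The other alternatives kept each of these counts within 1.5 times. With a pseudocount of 0.1 CPM, 8 members were higher (LAMA4 at 1.12 and ITGA9 at 1.58 were added) and 6 lower (ITGA10 at -1.26 was added). All genes compared rose as well, to 1726 higher and 907 lower. The median log2 fold change of the members ranged from 0.06 to 0.40 over the alternatives, and scaling by DESeq2 size factors or totals moved the median of all genes to at most 0.04. Of the 21 named members, 0 moved beyond their counting interval under another scaling, 2 with a pseudocount of 0.1 CPM and 11 with 5 CPM, where NPNT was at 3.44, ITGA8 at 2.97 and RELN at -5.54. The number of members at 1 CPM per kilobase or more in either library was 22 under all 3 scalings.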
